A study of Homo sapiens with 6 samples.

Results

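ESR1, PGR, ERBB2, GATA3, FOXA1, CDH1, EPCAM, ESRP1 and GRHL2 mark luminal and epithelial identity in the breast, and they were taken as a set of genes of another lineage state in MDA-MB-231, a human breast cancer cell line of triple-negative and mesenchymal type. Triple-negative tumors are defined by the lack of estrogen receptor, progesterone receptor and amplified HER2. The 9 genes were chosen by name, and every entry of the 6 deposited peak lists that overlapped the span of a gene extended by 20 kb on both sides was collected, as was done for all 19974 protein-coding genes of the autosomes and chromosome X. Each entry of a list is called a peak here, and the 9 windows together were 1380 kb long.

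CUT&Tag, in which an antibody tethers a transposase to a chromatin protein so that nearby DNA is cut out and sequenced, was carried out with antibodies against 3 targets. NONO, a nuclear RNA- and DNA-binding protein, was mapped in control cells (NC, labelled WT) and in NONO knockdown cells (NONO-KD). Histone H3 phosphorylated at threonine 11 (H3T11ph), a modification attributed to the kinase PKM2, and histone H3 acetylated at lysine 27 (H3K27ac), a mark of active promoters and enhancers, were each mapped in NC and in PKM2 knockdown cells (PKM2-KD). Each of the 6 groups held 1 library of the same cell line, so no difference below has a replicate check and no p-value is given. Which knockdown agent was used for these libraries, and how many cells or clones went into them, is not given in the sources used here.

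Luminal breast cells run on a small circuit of transcription factors. FOXA1 opens chromatin at estrogen-responsive enhancers, GATA3 binds with it, and the estrogen receptor encoded by ESR1 acts through the sites they occupy and switches on PGR. Epithelial character is kept by the adhesion proteins encoded by CDH1 and EPCAM, by the splicing factor ESRP1 and by GRHL2, a transcription factor that activates epithelial junction genes, and mesenchymal carcinoma cells typically express these genes weakly or not at all. Expression was not measured in these files, so silence of the 9 genes is background and not a result here.

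The NC lists of NONO and H3K27ac were made in another form than their knockdown lists. In NONO NC 94.57% of peaks were 269 bp wide, the minimum there, and in H3K27ac NC 79.31% were at the minimum of 112 bp, against 1.193% to 2.052% of peaks at the minimum width in the other 4 lists. The H3K27ac NC list held 572970 peaks and the PKM2-KD list 212856. Knockdown and list making cannot be told apart for NONO and H3K27ac, and the H3T11ph pair was the one with a single form.

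The control H3K27ac list covered the 9 windows about as much as those of other genes. H3K27ac NC had 338 peaks in the windows (exact 95% Poisson interval 302.9 to 376.0, counting error only), which covered 50143 bp or 3.633% of the sequence. The median member had 4.286% of its window under H3K27ac peaks, and the median of all 19974 genes was 3.638% with quartiles of 2.389% and 5.473%. In PKM2-KD the 9 windows held 129 peaks (107.7 to 153.3) and 31033 bp, and the median member was at 2.778% against 2.588% for all genes, with quartiles of 1.154% and 5.326%. In each list 4 of the 9 members lay below the median of all genes. Covered length did not mark out genes of other lineages in these lists either, since 26 liver, neuronal and muscle genes had medians of 3.724% in NC and 2.276% in PKM2-KD. Medians were higher for 18 housekeeping genes, 7.375% and 12.57%, and for 25 mesenchymal genes, 5.273% and 4.548%. Single genes overlapped widely, with NC ranges of 0.6611% to 19.52% for housekeeping genes and 0.6665% to 11.11% for those of other tissues. Covered length thus differed between lists by the median, but whether each of the 9 genes was silent cannot be read from it.

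Most of these H3K27ac peaks were weak, as were those of the whole lists. Over the 338 peaks of H3K27ac NC in the windows, the height recovered at the summit had a median of 12 fragments and ran from 6 to 166. These heights were not always unique. Peaks of 3.601-fold were given 12 fragments and those of 3.964-fold only 9, at the same −log10 p of 4.043, so the median of 12 may be too high. Over the 129 peaks of PKM2-KD the median was 10 with a range of 5 to 129, and the medians of NC and PKM2-KD were not compared. Among 400 peaks drawn from each whole list, the very strongest left out, the medians were likewise 12 in NC and 10 in PKM2-KD. Low height was therefore not particular to these windows. Peak by peak, 44 of the 338 NC peaks (13.02%, Wilson 95% interval 9.842% to 17.02%) overlapped a peak of PKM2-KD, and 46 of the 129 PKM2-KD peaks (35.66%, 27.92% to 44.23%) overlapped one of NC. Both shares lay near those of the whole lists, 13.28% and 33.25%.

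**Figure D1:**
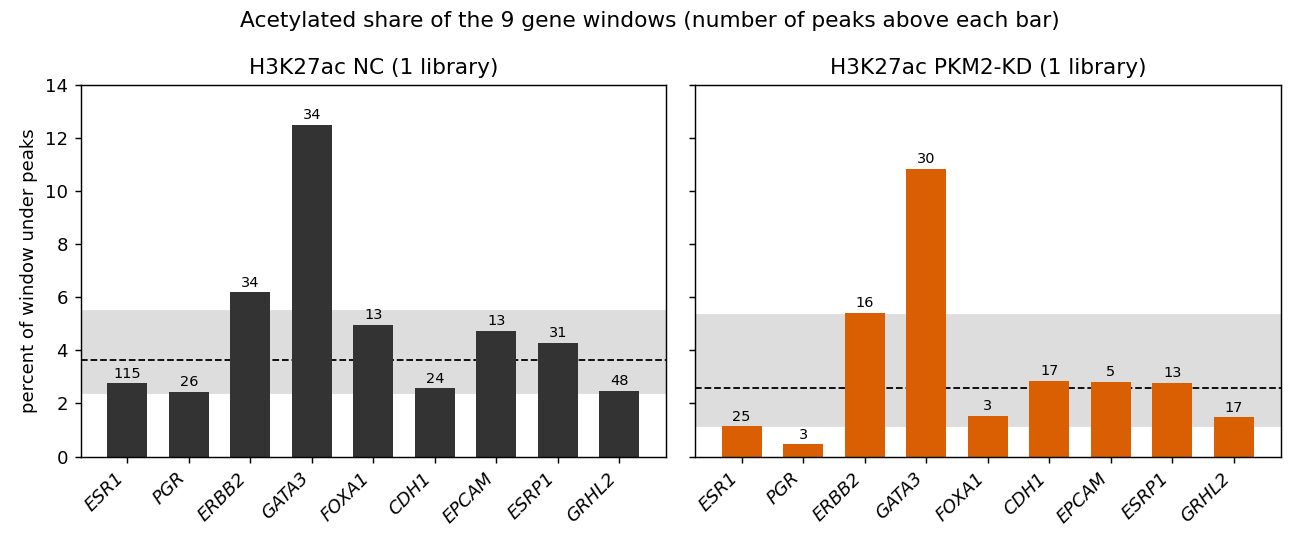
Percent of each gene window under H3K27ac peaks in NC (left) and PKM2-KD (right), 1 library each, with the number of peaks above each bar. The dashed line is the median of 19974 protein-coding genes and the grey band their quartiles. GATA3 (12.5% and 10.84%) and ERBB2 (6.184% and 5.425%) stand above the band in both lists.

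Few members had an H3K27ac peak of at least 500 bp at their own transcription start sites, and most genes had none either. A start was counted as marked when a peak lay within 1 kb of it. H3K27ac NC marked a start of 7 of the 9 genes, all but EPCAM and GRHL2, where 70.4% of the 15817 genes with an annotated start were marked. H3K27ac PKM2-KD marked 6 of the 9, all but ESR1, CDH1 and GRHL2, against 62.9% of genes. That order turned when both lists were made equally long by −log10 q, with 4 of 9 in NC and 6 in PKM2-KD, and with peaks of −log10 q of at least 5, with 4 and 5. ESR1 and GATA3 have 6 annotated starts each and so more places to be marked. With the 5′ end of the gene as the single start, 6 of 9 were marked in both lists, and the share of all genes was not computed that way. A peak of at least 500 bp within 1 kb of a start was found for ERBB2 alone in NC and for ERBB2 and GATA3 in PKM2-KD, and the shares of all genes were 20.4% and 36.7%.

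The promoters of ESR1, GATA3 and FOXA1, each as the 250 bases before a single annotated start, show what the peaks covered at that start. They are from RefSeq, assembly GRCh38.p14, and are written 5′ to 3′ on the strand of the gene. Capitals mark bases under an H3K27ac NC peak.
ESR1 (chr6:151807432-151807681, plus strand): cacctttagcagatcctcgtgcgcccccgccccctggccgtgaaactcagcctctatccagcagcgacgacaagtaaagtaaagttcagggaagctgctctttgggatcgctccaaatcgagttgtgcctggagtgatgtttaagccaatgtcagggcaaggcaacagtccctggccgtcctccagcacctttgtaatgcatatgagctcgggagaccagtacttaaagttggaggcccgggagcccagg
GATA3 (chr10:8045083-8045332, plus strand): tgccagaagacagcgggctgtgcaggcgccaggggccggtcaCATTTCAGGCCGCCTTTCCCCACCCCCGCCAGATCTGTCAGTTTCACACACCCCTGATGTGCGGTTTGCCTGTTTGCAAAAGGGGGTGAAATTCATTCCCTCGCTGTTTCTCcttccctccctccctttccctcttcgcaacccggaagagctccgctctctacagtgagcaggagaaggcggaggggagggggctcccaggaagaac
FOXA1 (chr14:37595250-37595499, minus strand): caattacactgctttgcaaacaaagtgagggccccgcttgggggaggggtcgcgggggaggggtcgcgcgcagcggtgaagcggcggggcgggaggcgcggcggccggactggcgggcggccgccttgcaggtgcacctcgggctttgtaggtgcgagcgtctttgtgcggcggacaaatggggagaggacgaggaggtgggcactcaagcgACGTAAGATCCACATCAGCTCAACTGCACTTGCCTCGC
In the ESR1 stretch 0 bases were covered in both H3K27ac lists. In the GATA3 stretch, before the first of 6 annotated starts, 112 bases were covered in NC and all 250 in PKM2-KD. Before each of the other GATA3 starts 0 bases were covered in NC. In PKM2-KD 181 bases were covered before the start at 8053641, 56 before that at 8060457 and 0 before the rest. In the FOXA1 stretch 38 and 21 bases next to the start were covered. None of the NONO and H3T11ph lists covered a base of these 3 stretches.

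The promoter table held 17 starts for 5 of the members, ESR1, PGR, ERBB2, GATA3 and FOXA1. The starts of CDH1, EPCAM, ESRP1 and GRHL2 were taken as the 5′ end of the gene, from their known strand. The letters CAGGTG, which read CACCTG on the other strand and which the repressors of epithelial genes of the SNAI and ZEB families are known to bind, were searched over the 250 bases of the 17 starts. They occurred before 1 of the 17, that of FOXA1 at position -122 counted from the start, and before 17.1% of the 22140 starts of all genes. By gene this was 1 of 5. The 17 starts are not independent, since ESR1 and GATA3 hold 6 each, and the 4 genes without an entry were not searched. FOXA1 also had the largest share of G and C of the 3 promoters shown, 67.2% against 60.8% for GATA3 and 56% for ESR1. Before the other GATA3 starts the share was 55.6% to 74.8%, and the median of all starts was 62%.

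ESR1 encodes the estrogen receptor alpha and has the longest window, 512.9 kb around chr6:151656672-152129619. H3K27ac covered 14206 bp of it in 115 peaks in NC and 5806 bp in 25 peaks in PKM2-KD. These amounts were 2.769% and 1.132% of the window, at the 32.87th and 24.58th percentile of all genes. Most of this lay inside the gene and away from its starts, since 224 bp in all lay within 1 kb of 2 of the 6 annotated starts in NC and 0 bp near any of them in PKM2-KD. In NC the peak of highest fold enrichment over the background of the same library was chr6:151948424-151948711, 13.04-fold, deep inside the gene and 34 fragments high. In PKM2-KD it was chr6:152095278-152095881, 604 bp wide and 16.87-fold, also in the gene body. So neither library had its strongest ESR1 peak near a start.

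PGR encodes the progesterone receptor, a classical target of the estrogen receptor, and was among the least covered members. Its window of 140.2 kb around chr11:101029624-101129813 held 26 H3K27ac peaks and 3420 bp in NC, or 2.44% of the window. In PKM2-KD it held 3 peaks and 637 bp, or 0.4544%, at the 10.53rd percentile of all genes. One of these 3, chr11:101129624-101129851, lay across the upstream start with a height of 14 fragments and a fold of 8.132. In NC the start region had a single peak of 112 bp.

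ERBB2 encodes the receptor tyrosine kinase HER2 and sits in a gene-dense stretch of chromosome 17, with ends of PGAP3, MIEN1, GRB7 and PNMT inside its window of 80.56 kb. H3K27ac covered 4982 bp in 34 peaks in NC and 4371 bp in 16 peaks in PKM2-KD, which was 6.184% and 5.425% of the window. Both values were above the upper quartile of all genes. Its single annotated start, chr17:39688094, was the one member start with a wide peak in both lists, chr17:39687809-39688382 at 6.23-fold in NC and chr17:39687693-39688285 at 9.217-fold in PKM2-KD. An end of PGAP3 lies within 1 kb of that start, so which of the genes the peak belongs to cannot be told apart. The strongest PKM2-KD peak of the window, chr17:39729895-39730695 at 11.24-fold, lay beyond ERBB2 at a neighbour's end.

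GATA3, a zinc finger transcription factor of luminal cells, was the most acetylated member in both lists. Its window of 69.87 kb around chr10:8045333-8075198 had 8732 bp in 34 peaks in NC and 7576 bp in 30 peaks in PKM2-KD. That was 12.5% and 10.84% of the window, at the 97.48th and 91.74th percentile of all genes. The coverage was concentrated towards the 3′ end of the gene and not at its first start. When peaks less than 1 kb apart were joined, the best stretch in NC ran from 20 to 30.5 kb downstream of the first start with 12 peaks covering 4708 bp of 10592 bp, and in PKM2-KD from 23 to 30.6 kb with 10 peaks covering 3495 bp of 7651 bp. These stretches were at the 98.63rd and 93.48th percentile of the best stretches of all genes. Within them the peak of highest fold was at the same place in both lists, chr10:8070469-8071298 at 26.47-fold in NC and chr10:8070442-8071273 at 28.73-fold in PKM2-KD.

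Beside that peak, GATA3 had a site where 4 of the 6 lists met. It joined H3K27ac NC (chr10:8069171-8070315, 166 fragments), H3K27ac PKM2-KD (chr10:8069478-8069886, 129 fragments), NONO NC (chr10:8069144-8069412, 96 fragments) and H3T11ph NC (chr10:8069621-8069830, 137 fragments). The NONO and H3T11ph peaks did not overlap each other, and each overlapped the H3K27ac NC peak. The local background that fold and height imply at this site was high as well. It was 4.001 in H3K27ac NC, the highest of the 338 member peaks and 9.194 times their median, and 7.649 in PKM2-KD, the highest of 129 and 9.056 times the median. For NONO NC and H3T11ph NC it was 9.567 and 4.63 times the median of the member peaks of those lists. The part of this local background in the meeting of the lists was not tested.

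FOXA1, the pioneer factor of luminal cells, has a short gene at chr14:37589552-37595249, with an end of TTC6 near its start, and a window of 45.70 kb. H3K27ac covered 2269 bp in 13 peaks in NC, or 4.965%, and 706 bp in 3 peaks in PKM2-KD, or 1.545%. Its start kept a peak in both lists, chr14:37594897-37595287 at 6.504-fold and 16 fragments in NC and chr14:37594970-37595270 at 5.111-fold and 9 fragments in PKM2-KD. The highest fold in its window was 7.271 in NC and 6.133 in PKM2-KD, at the 22.73rd and 15.19th percentile of all genes. FOXA1 therefore had the weakest top peak of the 9 members in both lists.

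CDH1 encodes E-cadherin, the adhesion molecule of epithelial junctions, and its window of 138.2 kb around chr16:68737292-68835537 had 3568 bp of H3K27ac in 24 NC peaks and 3948 bp in 17 PKM2-KD peaks. It was the one member with more covered bp in PKM2-KD. At its start NC had 224 bp in narrow peaks and PKM2-KD had none. The strongest peak of the window in both lists lay at an end of the neighbour TANGO6, chr16:68843445-68844267 at 16.3-fold in NC and chr16:68843510-68844148 at 13.29-fold in PKM2-KD. Inside CDH1 the widest peak was chr16:68792890-68793562 in PKM2-KD, 673 bp at 9.217-fold.

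EPCAM encodes the epithelial cell adhesion molecule, and its own body was almost bare. Of 2737 bp covered in 13 NC peaks, 224 bp lay in the body and 0 bp within 1 kb of the start. Of 1627 bp in 5 PKM2-KD peaks, 183 bp lay at the start and 0 bp elsewhere in the body. The strongest peak in both lists lay outside the gene, upstream of it, at chr2:47354172-47354818 at 16.67-fold in NC (14.97 kb before the start) and chr2:47354100-47354879 at 24.02-fold in PKM2-KD.

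The upstream EPCAM site also carried the other targets. NONO NC had chr2:47354456-47354724 at 28.43-fold, and H3T11ph PKM2-KD had chr2:47354504-47354639 at 46.54-fold. In contrast with the GATA3 site, the implied background here was 0.9992 to 1.133 times the median of the member peaks in each of the 4 lists. No peak of NONO-KD or H3T11ph NC was listed there.

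ESRP1, an epithelial regulator of alternative splicing, and GRHL2, a grainyhead-type transcription factor, both lie on chromosome 8. The ESRP1 window of 106.3 kb had 4556 bp in 31 NC peaks and 2953 bp in 13 PKM2-KD peaks, with 159 bp and 219 bp near its start. Its strongest PKM2-KD peak, chr8:94719479-94720368 at 22.75-fold, lay at an end of DPY19L4. The GRHL2 window of 228.8 kb had 5673 bp in 48 NC peaks and 3409 bp in 17 PKM2-KD peaks, or 2.48% and 1.49%. GRHL2 was the one member with no peak of any of the 6 lists within 1 kb of its start. Its widest peak was chr8:101600169-101600856 in PKM2-KD, 688 bp at 9.2-fold in the gene body.

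**Figure D2:**
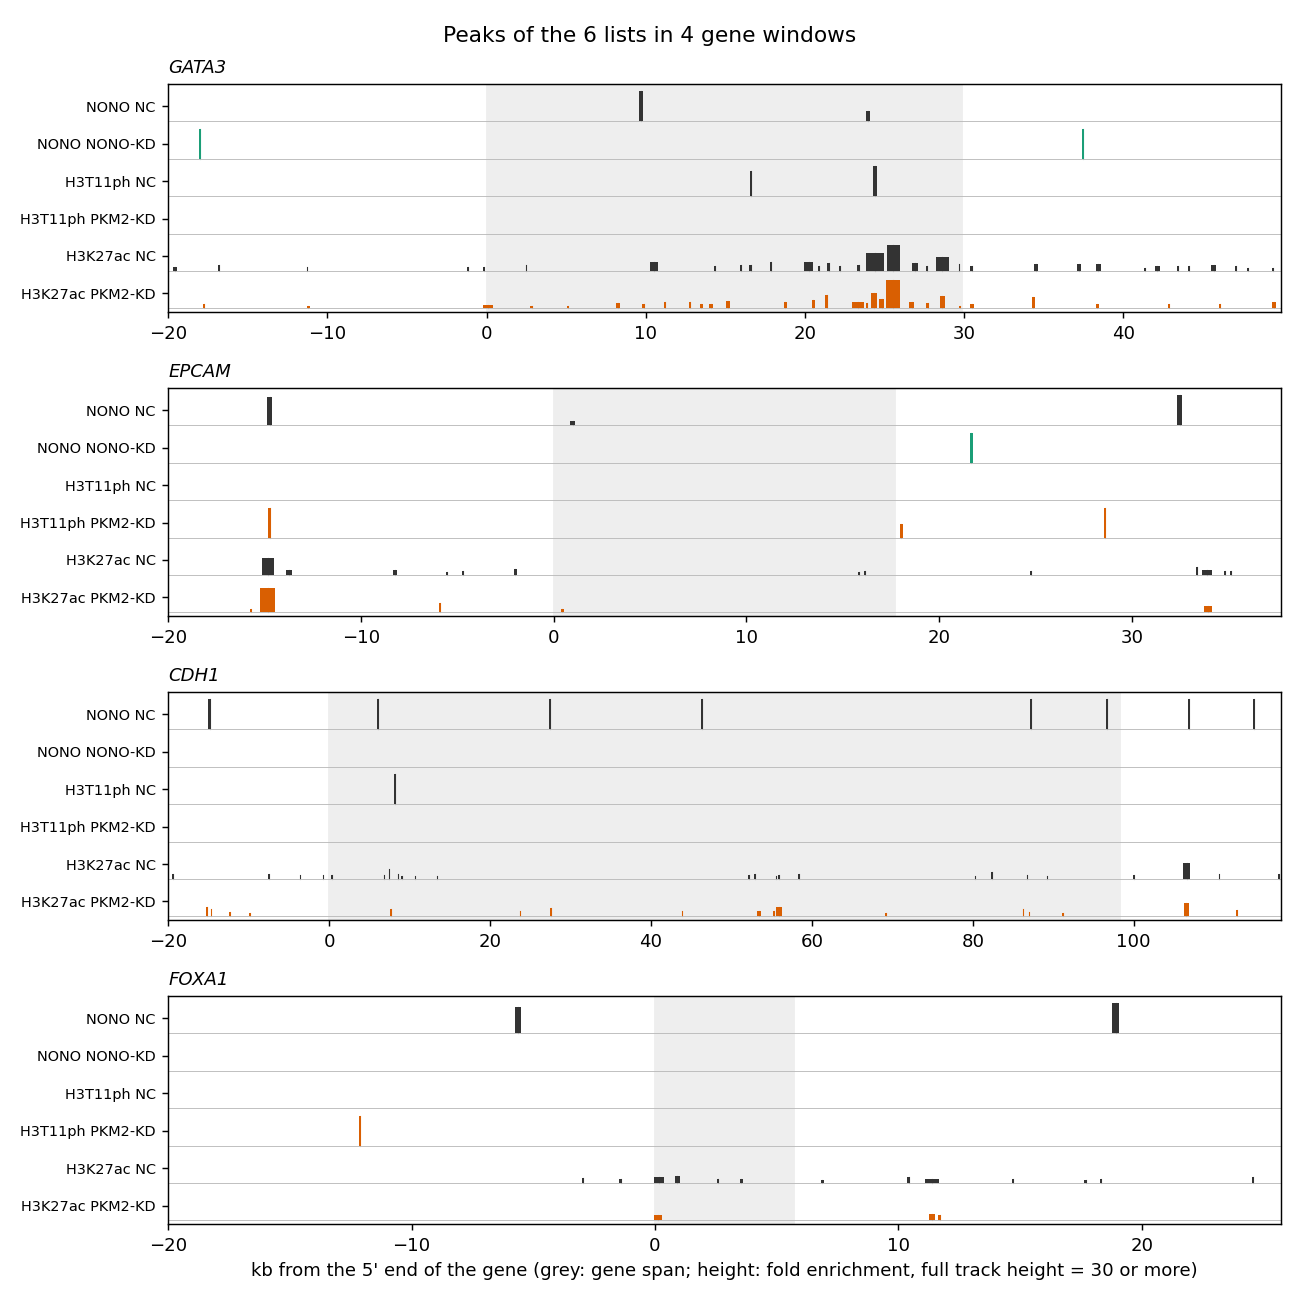
Peaks of the 6 lists in the windows of GATA3, EPCAM, CDH1 and FOXA1, by distance in kb from the 5′ end of the gene, with the gene span in grey and peak height as fold enrichment, capped at 30. GATA3 has its widest H3K27ac NC peak 24.50 kb downstream of the first start, EPCAM 14.97 kb before its start, and CDH1 at a neighbour's end 106.24 kb downstream.

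Across the 9 windows H3K27ac was lower in PKM2-KD by the lists as deposited. The covered bp of PKM2-KD were 61.89% of those of NC, beside 69.64% for the whole lists and 74.28% for the median of 19840 genes. ESR1 (40.87%), PGR (18.63%) and FOXA1 (31.12%) were lower by at least 2-fold, which made 3 of 9 members where 29.9% of 19867 genes were lower by as much, and 0 of 9 were higher by at least 2-fold where 4.19% of genes were. The other members were at 59.44% (EPCAM), 60.09% (GRHL2), 64.82% (ESRP1), 86.76% (GATA3), 87.74% (ERBB2) and 110.7% (CDH1). The share of members past 2-fold was thus near that of all genes.

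The direction turned when the lists were made equally long. After the NC list was cut to its 212856 peaks of highest −log10 q, the number of peaks in PKM2-KD, the 9 windows had 23322 bp in NC, and PKM2-KD was at 133.1% of NC. For the whole lists that value was 137%, and for the median gene 144.8%. Then 7 members had more covered bp in PKM2-KD, and PGR (72.72%) and FOXA1 (88.14%) had fewer. CDH1, at 245.7%, was the one member higher by at least 2-fold where 31.2% of genes were, and 0 of 9 were lower by 2-fold where 7.67% were. ESR1 moved from 40.87% to 107.9%. No direction of change is drawn for H3K27ac at these genes.

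**Figure D3:**
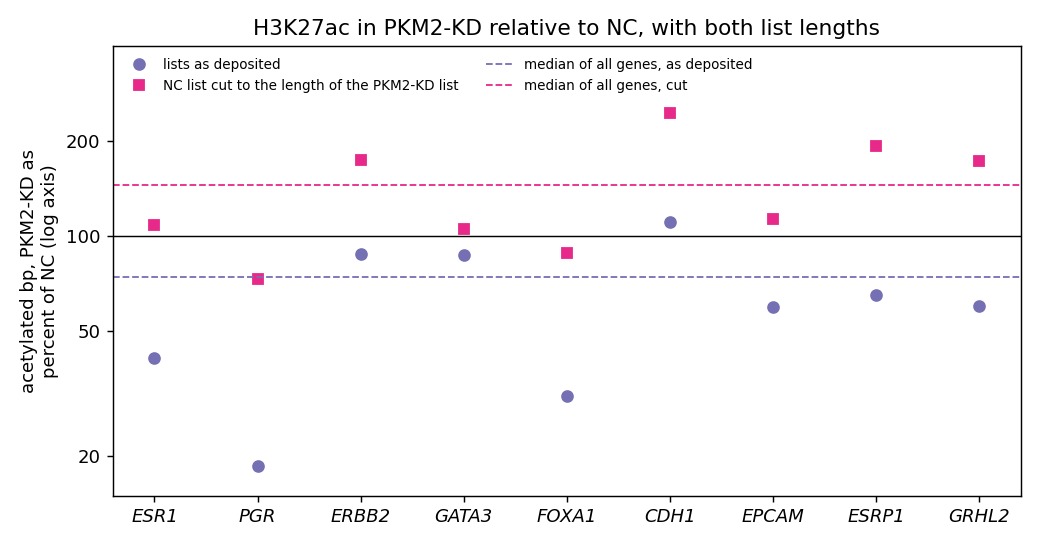
Acetylated bp in PKM2-KD as percent of NC for each gene on a log axis, with the lists as deposited (circles) and with the NC list cut to the length of the PKM2-KD list (squares). Dashed lines are the medians of all genes, 74.28% and 144.8%, and ESR1, ERBB2, GATA3, EPCAM, ESRP1 and GRHL2 lie on opposite sides of 100% in the 2 settings.

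Peaks of at least 500 bp gave another view of the 9 windows. Such a peak was present in the windows of 5 of 9 members in NC (41.7% of all genes) and 7 of 9 in PKM2-KD (59.9% of all genes). The median share of the window under such peaks was 0.5953% in NC and 0.8373% in PKM2-KD for the members. It was 1.067% and 3.566% for 25 genes of the mesenchymal and EMT (epithelial-mesenchymal transition) program, whose expression was not measured here, and 2.095% and 7.669% for 18 housekeeping genes. It was 0% in both lists for 26 liver, neuronal and muscle genes, and 0% and 0.853% for all genes. The 36 other luminal and epithelial genes, the list most like the members, had 0% and 0.9285%. The member medians were the values of CDH1 in NC and ESRP1 in PKM2-KD. Each came from 1 such peak at a neighbour's end, 823 bp at TANGO6 and 890 bp at DPY19L4. Peaks at ends of neighbouring genes were not set apart in any of the lists, so these shares describe windows and not the genes alone. These values describe 2 libraries with no test. In NC the median was 0% for the related lineage list and for the genes of other tissues because most genes of each had no such peak. One was present for 16 of the 36 and 7 of the 26 genes.

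Members at the ends of these lists show the range. FOSL1 (45.93%), VIM (24.73%) and NT5E (16.66%), genes of the mesenchymal program, had the largest shares of their windows under H3K27ac NC peaks of any width in their list, and TWIST1 (1.799%), CDH2 (2.221%) and SNAI2 (2.24%) the smallest. Among the 36 other luminal and epithelial genes the largest were EHF (15.58%), CLDN7 (11.22%) and KRT19 (10.86%) and the smallest TFF3 (0.7681%), OVOL2 (1.354%) and TBX3 (1.869%). GATA3 at 12.5% was thus within the upper range of its lineage list, and the median of those 36 genes was 4.6% in NC and 3.425% in PKM2-KD. INS (11.11%), GFAP (8.863%) and APOA2 (8.641%) led the genes of other tissues, with CYP3A4 (0.6665%), MYF5 (1.31%) and MYOG (1.679%) at the bottom. These windows include the flanks, and peaks of neighbouring genes were not set apart in them. INS, for example, had no H3K27ac NC peak within 1 kb of a start, though it had one in PKM2-KD. GAPDH (15.35%) and YWHAZ (13.46%) were among the 3 highest housekeeping genes, with PGK1 (0.6611%), PPIA (3.805%) and HPRT1 (3.818%) at the bottom. At their starts, 9 of 19 mesenchymal genes with an annotated start had a peak of at least 500 bp in NC, beside 1 of 9 members, 5 of 21 other luminal and epithelial genes, 9 of 15 housekeeping genes and 0 of 17 genes of other tissues.

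**Figure D4:**
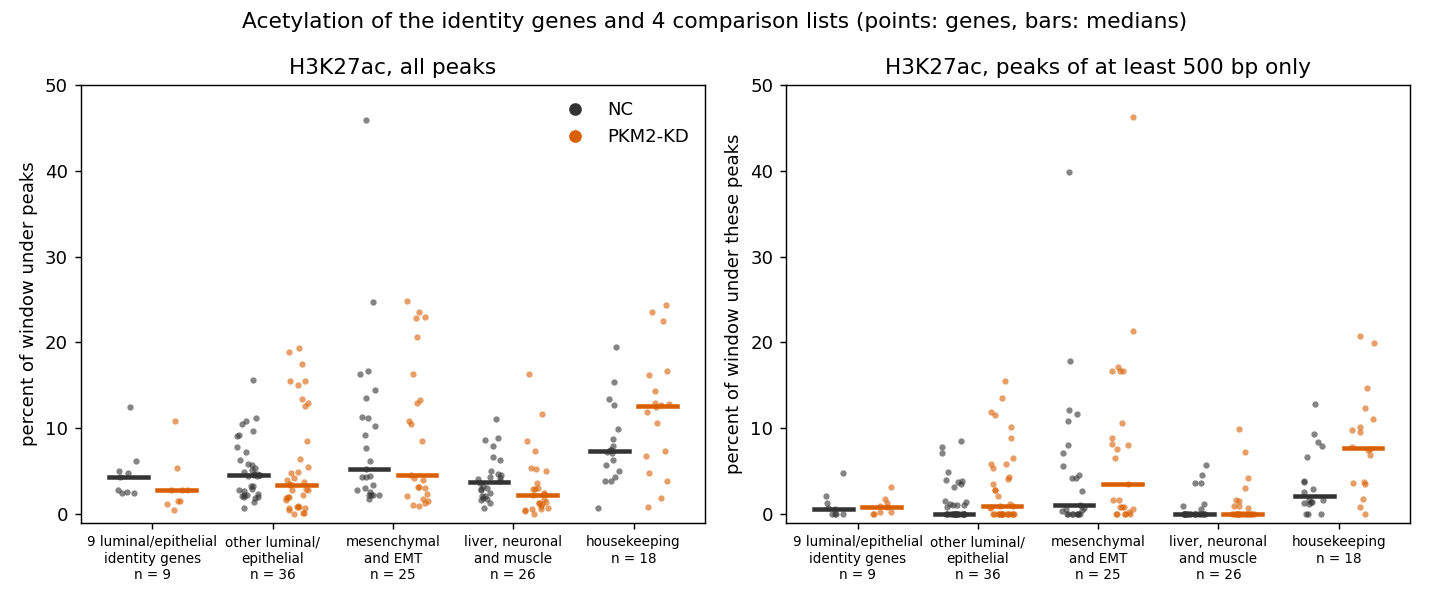
Percent of the gene window under H3K27ac peaks in NC and PKM2-KD for the 9 identity genes and 4 comparison lists, with peaks of any width (left) and of at least 500 bp (right). Points are genes and bars are medians. With wide peaks alone the identity genes have medians of 0.5953% and 0.8373% and the mesenchymal genes 1.067% and 3.566%. The 2 medians of the identity genes are the values of CDH1 in NC and ESRP1 in PKM2-KD, each from 1 peak at a neighbour's end.

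By the median member, NONO NC peaks were about as frequent in the 9 windows as in those of other genes. NONO NC had 39 peaks (27.73 to 53.31) and NONO-KD had 20 (12.22 to 30.89), which was 2.826 and 1.449 per 100 kb over the joined windows. The median member had 3.934 and 1.241 peaks per 100 kb, and the median of all genes was 3.974 and 1.565. Every member had a NONO NC peak, where 9.56% of genes had none in the window, and FOXA1 and CDH1 had none in NONO-KD, where 30.2% of genes had none. GRHL2 had 9 and 7 peaks, ESR1 5 and 7, and CDH1 8 and 0. The CDH1 peaks had folds of 35.8 to 110.6 in NC and were spread along the gene and both flanks, and none of the 8 lay within 1 kb of the start. The exact intervals of 8 and 0 peaks, 3.454 to 15.76 and 0 to 3.689, overlapped slightly. Overlap of intervals is no test of a difference, and the difference between these counts was not tested.

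At the starts, NONO NC had a peak within 1 kb at 2 of 9 members, GATA3 (chr10:8054888-8055156, 63.14-fold, at an internal start) and EPCAM (chr2:47370167-47370435, 3.772-fold), where 22.3% of genes had one. NONO-KD had one at 0 of 9, where 7.5% of genes did. The highest NONO fold of the set was 171.6, at chr11:101079877-101080145 inside PGR. None of the 39 NC peaks overlapped a NONO-KD peak and none of the 20 NONO-KD peaks overlapped an NC peak, and the whole lists had 2.014% and 4.39% overlapping. The Wilson 95% intervals of these 0 counts reached 8.967% and 16.11%, so they hold the whole-list shares.

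The H3T11ph pair was the one with lists of a single form. H3T11ph NC had 16 peaks (9.145 to 25.98) and 2510 bp in the windows, and PKM2-KD had 20 peaks (12.22 to 30.89) and 2233 bp. The intervals overlapped widely. Whole-list peak numbers in PKM2-KD were 85.73% of NC, and for the members 125%. FOXA1 and EPCAM had no peak in NC, where 26.8% of genes had none, and PGR, GATA3 and CDH1 had none in PKM2-KD, where 30.4% of genes had none. No member had an H3T11ph peak within 1 kb of a start in either list, where 16.3% of genes in NC and 16.5% in PKM2-KD had one.

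The 2 H3T11ph peaks of GATA3 in NC, at 50.65-fold and 24.78-fold, lay 24.46 and 16.59 kb downstream of its first start, and each overlapped an H3K27ac NC peak. EPCAM had 0 peaks in NC and 3 in PKM2-KD, GRHL2 had 3 and 6, ESRP1 1 and 3, ERBB2 3 and 3, and ESR1 5 and 4. As for NONO, none of the 16 and none of the 20 peaks overlapped a peak of the other list, while 5.748% and 6.976% of the whole lists did, within the intervals of the 0 counts (up to 19.36% and 16.11%). A difference between NC and PKM2-KD was not tested for any single member, and counts this low have wide intervals. The upper 95% bound of a count of 0, for example, is 3.689 peaks.

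**Figure D5:**
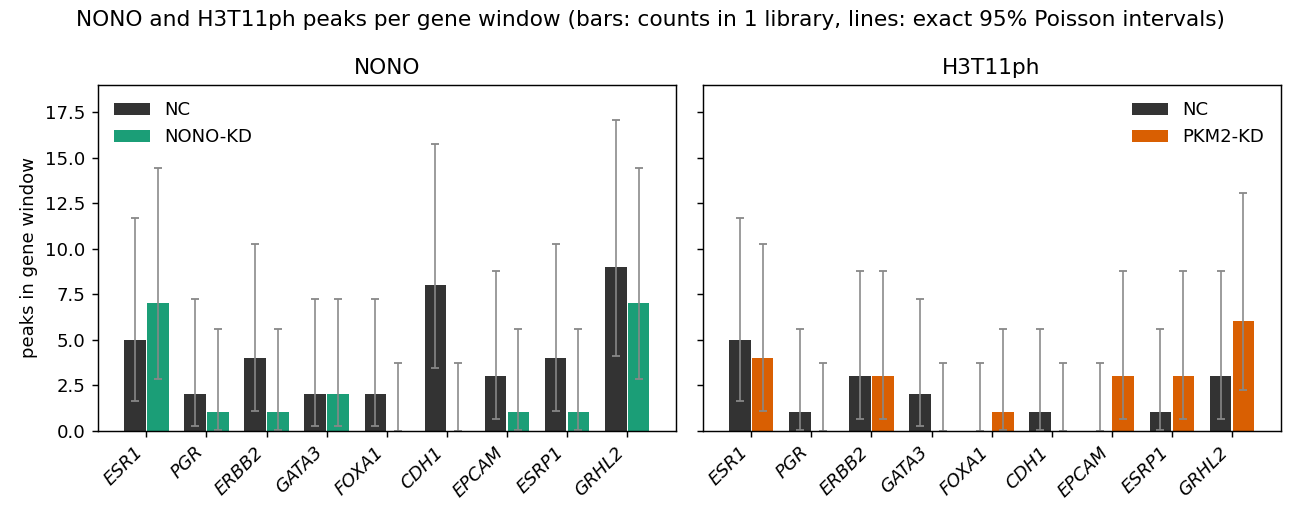
Number of NONO (left) and H3T11ph (right) peaks in each gene window in NC and knockdown, 1 library each, with exact 95% Poisson intervals that cover counting error only. CDH1 had 8 NONO peaks in NC and 0 in NONO-KD, and the H3T11ph intervals of NC and PKM2-KD overlap at every gene.

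Most sites belonged to a single list, in these windows as in the whole series. When overlapping peaks of the 6 lists were joined, the 9 windows held 493 sites, of which 437 (88.6%) belonged to a single list, beside 88.9% over the whole series. All 3 targets met at 3 sites, or 0.609%, beside 0.536% of 863863 sites of the whole series. They were the GATA3 and EPCAM sites described above and one 132.0 kb inside GRHL2, where NONO-KD (3.497-fold), H3T11ph NC (12.32-fold) and H3K27ac PKM2-KD (9.945-fold) overlapped. At the GRHL2 site the lists came from different cells, so it shows no meeting within one of the 3 conditions. At EPCAM the H3T11ph peak came from PKM2-KD and the NONO peak from NC. At GATA3 all 3 targets were present in NC.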

How the data were processed

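CUT&Tag libraries of 3 targets in MDA-MB-231 cells were taken as 6 narrowPeak lists, 1 library a group, placed by title. Per the submitters' processing notes the lists were made with MACS2 2.1.1.20160309 on hg38, with FastQC 0.11.9, cutadapt 1.18, SAMtools 1.3.1 and DESeq2 also named; aligner, control library and duplicate handling are not given in the sources used here. In the deposited files the score is a scaled −log10 q, fold is a ratio of the summit to the local background, and p-value and q-value are −log10 values by the authors, with a threshold near q = 0.05. Read totals were not used here, and depth was read from summit heights recovered from fold and −log10 p (tolerance 0.002, at least 99.75% of 400 peaks matched per list). H3K27ac NC heights had been scaled by 0.5209, and some peaks there matched more than 1 height. Peaks of at least 1 bp overlap were counted with Python 3.11.15, pandas 2.3.3, numpy 2.4.6 and scipy 1.17.1, tested on simulated data. Gene spans and starts came from RefSeq (GRCh38.p14). A start is any annotated start. All 9 members are described, each with its peaks of highest fold and width, and from each comparison list the 3 highest and 3 lowest genes by covered share in H3K27ac NC. One gene named by this rule is not reported here. Members, lists and thresholds were chosen with earlier results of these data known. Intervals cover counting error only, and no test was made between groups of 1 library. The alternatives were a −log10 q of at least 5, peaks with 50% of their length inside, a flank of 5 kb, equal list lengths, wider peaks and, chosen after seeing the data, peaks of at least 500 bp and the 5′ end of the gene as the single start.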

Additional observations from a re-analysis of the deposited data

How the results depend on the processing

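No paired analysis was possible because a group of 1 library gives no pairs to block on. A value was taken as unchanged within 1.5 times its value as reported. With 50% of a peak inside the window every value stayed the same. With a flank of 5 kb the median share of the window fell to 2.71% (NC) and 1.674% (PKM2-KD). For H3K27ac with −log10 q of at least 5, NC had 84 peaks, 18515 bp, 4 marked starts and a median of 1.018%, PKM2-KD had 78 peaks and a median of 1.545%, and PKM2-KD was at 92.86% of NC by peaks and 116.9% by bp. With equal lengths NC had 123 peaks, 23322 bp, 4 marked starts and a median of 1.439%, and PKM2-KD was at 104.9% by peaks and 133.1% by bp. With peaks at least 2 times the narrowest width, NC had 33 peaks, 14258 bp, 3 marked starts and 0.9436%, PKM2-KD had 41 peaks, 17115 bp and 1.225%, and the ratios were 124.2% and 120%. That setting left 0 NONO peaks in both lists, 1 H3T11ph peak in NC and 0 in PKM2-KD, a ratio of 0%. With peaks of at least 500 bp (added after seeing the data) NC had 9 peaks, 6516 bp, 1 marked start and 0.5953%, PKM2-KD had 12 peaks, 8467 bp, 2 marked starts and 0.8373%, and the ratios were 133.3% and 129.9%. Each setting that left out weak or narrow NC peaks put the bp ratio above 100%, and the cause was not tested. The whole lists turned the same way, so the turn was not particular to these genes. Their bp ratios were 130.2% at the stricter q, 137% at equal lengths, 136.1% with the wider peaks and 174.7% with peaks of at least 500 bp. The 18 covered lengths of single members moved lower by over 1.5 times for 11 at the stricter q, 9 with the short flank, 8 at equal lengths, 13 with the wider peaks and all 18 with peaks of at least 500 bp, and none moved higher. The NONO and H3T11ph values rest on at most 9 peaks in a window, which limits their precision.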
